A study of Mus musculus with 9 samples.

Results

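Mouse pre-B cells that lack IRF4 and IRF8 were driven by either of 2 routes, and the arrays of these routes were compared with each other directly. In 3 arrays IRF4 had been put back into cells kept in high IL-7, and in 3 arrays the null cells had been moved to low IL-7. The arrays were chosen by their titles, and they make up 6 of the 9 arrays of the study. All named genes of the deposited table were used, and 12828 of them passed the filter on low intensity. The question is how the 2 routes differ in the transcripts they leave in the cells. The remaining 3 arrays hold null cells in high IL-7, the starting state, and their values are given beside many of the genes. Where only a difference between the routes is given, it does not say which route moved from the starting state.

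Every group, the starting state included, carried the IRF4,8 -/- genotype. The culture medium was OptiMEM with fetal calf serum, to which recombinant IL-7 was added at an amount of 5 ng (high) or 0.25 ng (low) per volume; the labels disagree on the volume, so no concentration is given here. They do not say by what means IRF4 was put back, for how long, or from which animals or clones the cells came, and no array holds null cells that were handled like the IRF4 cells but without IRF4. The groups compared therefore differ both in IRF4 and in the amount of IL-7, and these cannot be told apart. Nothing in the labels says that the replicates were separate cultures, so the spread behind the p-values is that between arrays and may be technical.

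As background, a pre-B cell has rearranged its immunoglobulin heavy chain and shows it at the surface with the surrogate light chain, as the pre-B cell receptor. IL-7 keeps such cells growing through JAK kinases, STAT5 and phosphoinositide 3-kinase, which holds FOXO factors out of the nucleus. IRF4 and IRF8 are transcription factors that act redundantly at this stage, and cells lacking both stay large and cycling and do not rearrange their light chains well. Both a fall in IL-7 and the return of IRF4 are known to move such cells towards light-chain recombination.

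Levels below are log2(intensity + 16), where the intensity is the value the authors deposited for a probe set, and a difference is the mean of the IRF4 arrays minus the mean of the low IL-7 arrays, so that 1 log2 unit is a 2-fold difference. Errors are standard errors (SE) of the difference from the model unless said otherwise, and n is 3 arrays in each group. A gene was called when its adjusted p from limma was below 0.05. Array medians ran from 139.7 to 151.3. Arrays of the same group correlated with r from 0.986 to 0.996, against 0.96 to 0.973 between an IRF4 array and a low IL-7 array. On the first principal component of the 9 arrays (61.3% of the variance) low IL-7 arrays scored 35.93 to 40.21 and the others -22.84 to -16.22. The control signal for 18S ribosomal RNA was lower on IRF4 replicate 3 (6.41) and high IL-7 replicate 1 (6.53) than on the remaining arrays (7.70 to 8.49). Without both of these arrays, an alternative chosen after seeing the data, 4649 genes were called.

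Irf4, the gene removed and put back, has 2 probe sets above the filter. The dimmer one read 8.38, 8.16 and 8.09 in low IL-7, 10.11, 10.45 and 11.32 with IRF4, against 8.63, 7.77 and 8.11 in high IL-7. All IRF4 arrays lay above all others, by 2.42 (SE 0.28) over low IL-7 or 5.34-fold, with an adjusted p of 8.55e-05 over all probe sets. The brighter one, which stands for the gene in the counts below, went the other way. It read 12.96, 12.95 and 12.81 in low IL-7, 11.86, 11.86 and 12.06 with IRF4, against 12.50, 12.21 and 12.28 in high IL-7, a difference of -0.98 (SE 0.09, adjusted p = 1.61e-05). The labels do not say which part of Irf4 was deleted or what was put back, so the signal of the brighter probe set in null cells checks nothing. Irf8, which was not put back, read 12.002, 11.81 and 11.96 in low IL-7, 11.58, 11.09 and 10.95 with IRF4, against 11.63, 11.44 and 11.41 in high IL-7, a difference of -0.71 (SE 0.14, adjusted p = 0.00266). Its second probe set gave -0.66 (adjusted p = 0.0314 over all probe sets).

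Of the 12828 genes tested, 4666 (36.4%) were called between the routes, 2391 (18.6%) higher with IRF4 and 2275 (17.7%) lower. The median difference over all genes was 0.00076. After centring each array on its median the calls split otherwise, with 62% of them higher in place of 51.2%. Most differences were small: 753 called genes (5.87%) differed by at least 2-fold, 382 of them (2.98%) higher with IRF4 and 371 (2.89%) lower. For 8388 genes (65.4%) the 95% interval of the difference lay within 1.5-fold, and 1121 of these (8.74% of all genes) were nevertheless called. For 6176 genes (48.1%) no IRF4 array fell within the range of low IL-7 or the reverse. A difference both bounded within 1.5-fold and not called was found for 7267 genes (56.6%). Leaving out low IL-7 replicate 3 gave the lowest count of called genes, 3572.

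**Figure D1:**
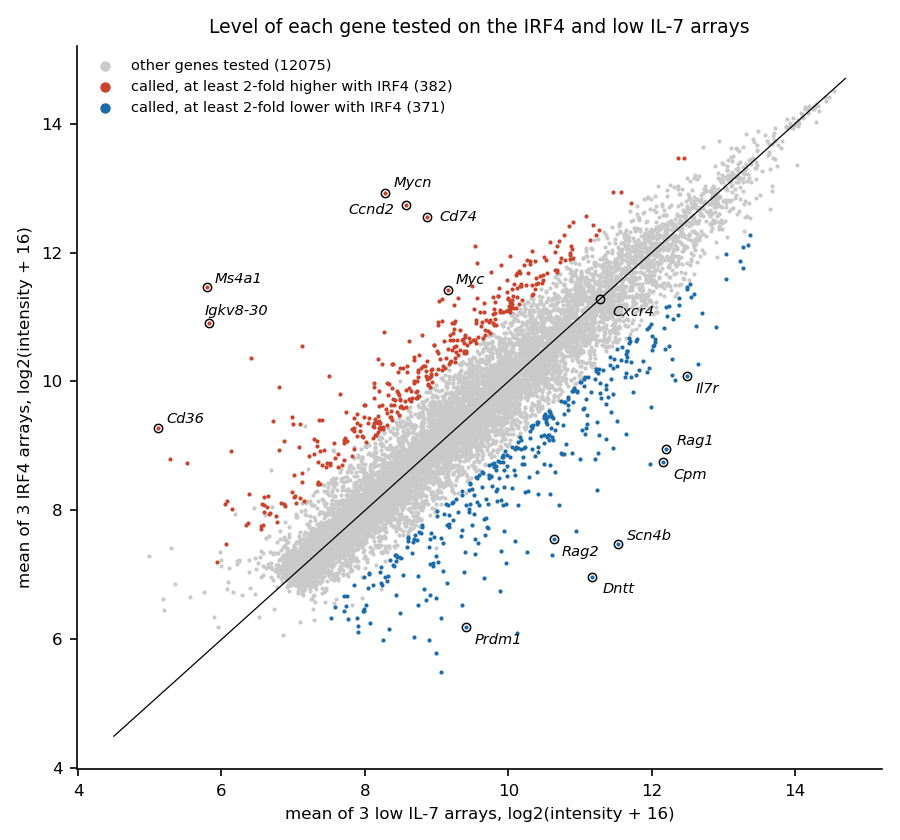
Each point is 1 of the 12828 genes tested, with its mean log2(intensity + 16) over the 3 low IL-7 arrays on the x axis and over the 3 IRF4 arrays on the y axis. Red points are the 382 genes called and at least 2-fold higher with IRF4, blue points the 371 called and at least 2-fold lower, and the remaining 12075 are grey; Ms4a1 lies farthest above the diagonal and Dntt farthest below it.

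The largest difference was in Ms4a1, which encodes CD20, a surface protein of maturing B cells. Its log2 levels were 5.73, 5.94 and 5.71 in low IL-7, 10.86, 12.001 and 11.51 with IRF4, against 7.99, 9.61 and 7.86 in high IL-7. The groups did not overlap, and low IL-7 lay below the starting state while IRF4 lay above it. The difference was 5.66 (SE 0.42, adjusted p = 5.08e-06), or 50.7-fold with a 95% interval from 26.7 to 96.3; as low IL-7 was below the filter intensity of 108, the size depends on the pseudocount, and it was 6.11 with a pseudocount of 1 and 4.79 with 64. A second probe set of Ms4a1 differed by 5.07. Cd74, the invariant chain that guides MHC class II molecules, read 8.53, 8.90 and 9.18 in low IL-7, 12.07, 12.73 and 12.86 with IRF4, against 9.22, 9.93 and 9.23 in high IL-7. Here the low IL-7 arrays all lay below the high IL-7 arrays and the IRF4 arrays far above both, 12.9-fold over low IL-7 (3.69, SE 0.25, adjusted p = 3.28e-06).

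Among the 12 genes with the largest excess in the IRF4 arrays were a MYC relative, a cyclin and several genes of antigen-presenting and phagocytic cells. Mycn, a proto-oncogene of the MYC family, read 8.19, 8.38 and 8.28 in low IL-7, 12.64, 12.99 and 13.15 with IRF4, against 8.14, 8.15 and 8.22 in high IL-7. Only the IRF4 arrays were high, by 4.64 (SE 0.12, adjusted p = 1.76e-08), or 24.9-fold; its dimmer probe sets differed by 1.36 (adjusted p = 0.000116 over all probe sets) and -0.03 (adjusted p = 0.922). Ccnd2, which encodes cyclin D2 and drives entry into the cell cycle, read 8.50, 8.59 and 8.64 in low IL-7, 12.62, 12.70 and 12.88 with IRF4, against 11.78, 11.62 and 11.43 in high IL-7. Its order was thus low IL-7, high IL-7, IRF4 with no overlap, and the difference of 4.15 (SE 0.10, adjusted p = 1.62e-08), or 17.8-fold, was called on each of its 6 other probe sets. Cd36, a scavenger receptor, read 5.12, 5.18 and 5.06 in low IL-7, 8.83, 9.59 and 9.43 with IRF4, against 5.26, 5.27 and 5.27 in high IL-7. Lsp1, a leukocyte actin-binding protein, read 7.01, 7.30 and 7.07 in low IL-7, 9.89, 11.06 and 10.70 with IRF4, against 7.10, 7.91 and 7.28 in high IL-7, a difference of 3.42 (SE 0.28). For Cd36, Lsp1 and Mycn the starting state lay near low IL-7, whereas for Trgv4, a T cell receptor gamma segment, it lay near IRF4 (10.52, 9.77 and 10.15, against 10.49, 9.94 and 10.67 with IRF4, against 6.64, 5.69 and 6.90 in low IL-7). Rnase6, an antimicrobial ribonuclease, was 9.33-fold higher with IRF4, Btla, an inhibitory lymphocyte receptor, 8.66-fold, and Pld4, an endolysosomal exonuclease, 6.93-fold. All of these except Mycn, Ccnd2, Cd74 and Lsp1 had at least 1 group below the filter intensity, so their sizes depend on the pseudocount.

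In the other direction Dntt led, the gene for terminal deoxynucleotidyl transferase, which adds bases at V(D)J joins in early B cells. It read 12.24, 10.10 and 11.15 in low IL-7, 7.77, 6.55 and 6.61 with IRF4, against 8.61, 7.09 and 7.95 in high IL-7. All low IL-7 arrays lay above all others, with a wide spread among them, and the difference was -4.19 (SE 0.54, adjusted p = 0.000174), or 18.2-fold with an interval from 7.96 to 41.8. Scn4b, a sodium channel subunit, read 11.66, 11.40 and 11.55 in low IL-7, 7.73, 7.38 and 7.32 with IRF4, against 9.11, 9.02 and 9.13 in high IL-7. The starting state lay between the routes, and the gap between them was 16.6-fold (adjusted p = 3.23e-08). Cpm, a membrane carboxypeptidase, was 10.7-fold lower with IRF4 (12.08, 12.20 and 12.21 in low IL-7, 8.89, 8.80 and 8.56 with IRF4), with high IL-7 near the IRF4 arrays at 8.96 to 9.21. Hmga2, a chromatin protein of fetal progenitors, read 9.47, 10.08 and 10.11 in low IL-7 and 7.29, 6.71 and 6.25 with IRF4, against 6.75 to 6.81 in high IL-7. Bmf, a pro-death BH3-only protein, was 9.55-fold lower on its brightest probe set (adjusted p = 6.9e-06), but its other probe sets gave -0.19 and -0.11 and were not called, and none of the other 3 probe sets of Maf, a transcription factor 9.60-fold lower with IRF4, was called. Rbm24, Kcnf1, Sertad4 and F13a1 complete the 12 lowest with Prdm1 and Rag1, which are described below, at differences from -4.03 (Rbm24) to -3.20 (F13a1).

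**Figure D2:**
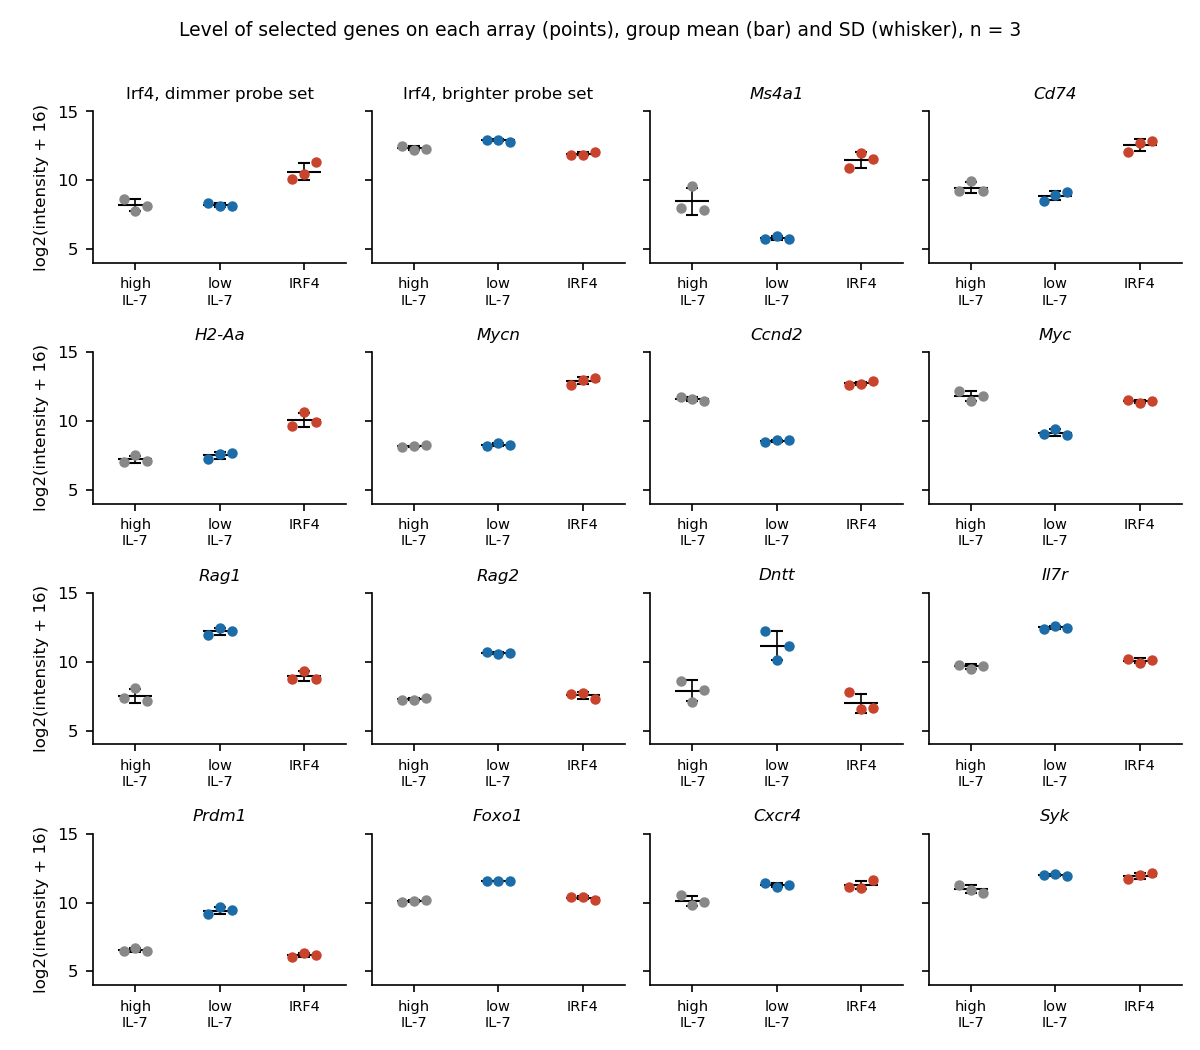
Each panel shows 1 gene or probe set, with log2(intensity + 16) on the y axis and the 3 groups on the x axis; points are single arrays, bars the group mean and whiskers the SD (n = 3). Rag1, Rag2, Il7r, Dntt, Prdm1 and Foxo1 are highest in low IL-7, Ms4a1, Cd74, H2-Aa, Mycn and Ccnd2 are highest with IRF4, and for Cxcr4 and Syk the 2 routes overlap and lie above high IL-7.

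Antigen presentation separated the routes. MHC class II molecules show peptides to helper T cells and are a feature of B cells beyond the pre-B stage. Of 10 genes of MHC class II presentation tested, 7 were higher with IRF4 (70%, against 18.6% of all genes) and 1 lower (10%, against 17.7%). The median difference was 0.82 against 0.00076 over all genes. H2-Aa, an alpha chain, read 7.20, 7.61 and 7.69 in low IL-7, 9.64, 10.65 and 9.95 with IRF4, against 7.04, 7.51 and 7.12 in high IL-7, 5.97-fold higher with IRF4 than in low IL-7 (interval 4.14 to 8.62, adjusted p = 2.08e-05). H2-Eb1, a beta chain, read 8.15, 8.37 and 8.60 in low IL-7, 9.99, 10.77 and 10.06 with IRF4, against 7.84, 8.42 and 8.00 in high IL-7 (1.90, SE 0.22). For both chains the IRF4 arrays stood alone and the low IL-7 arrays overlapped the starting state. H2-DMa, which helps load peptides, differed by 1.29 (SE 0.15), H2-Ab1 by 1.05 (SE 0.14) and Ciita, the master activator of these genes, by 0.59 (SE 0.13, adjusted p = 0.0054), though its second probe set was not called. H2-DMb2 was called at 0.28 (adjusted p = 0.0424) and lost the call without any 1 of the low IL-7 arrays or without IRF4 replicate 2 or 3. H2-Ob, part of the H2-O dimer that restrains peptide loading, went the other way: it read 10.53, 10.76 and 11.02 in low IL-7, 9.60, 9.78 and 9.12 with IRF4, against 8.62, 8.96 and 8.75 in high IL-7 (-1.27, SE 0.18, adjusted p = 0.000332). Its partner H2-Oa differed by -0.07 and H2-Eb2 by 0.13, both with intervals within 1.5-fold.

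The promoters of H2-Aa and Cybb are shown because these genes were high in the IRF4 arrays alone and because both hold motifs searched for here. The sequences are RefSeq's for the build GRCm38.p6, from 250 bases before the annotated start to 30 bases after it, on the gene's own strand, with the motif matches in capitals. H2-Aa (chr17:34287794-34288073, minus strand) has ATTGG, which is CCAAT on the other strand and the core of the Y box of MHC class II promoters, 48 bases before the start; CCAAT on either strand was found in 7 of 8 promoters of the MHC class II list (87.5%) and in 37.4% of all 32851 promoters of the table. Cybb (chrX:9469295-9469574, minus strand), the catalytic subunit of the phagocyte oxidase, has the interferon response type motif 168, 124 and 29 bases before the start, CCAAT 56 bases before it, and the ETS-IRF composite, the kind of site that IRF4 shares with PU.1, 4 bases after it. A match is a description of the letters and no evidence of binding.
H2-Aa: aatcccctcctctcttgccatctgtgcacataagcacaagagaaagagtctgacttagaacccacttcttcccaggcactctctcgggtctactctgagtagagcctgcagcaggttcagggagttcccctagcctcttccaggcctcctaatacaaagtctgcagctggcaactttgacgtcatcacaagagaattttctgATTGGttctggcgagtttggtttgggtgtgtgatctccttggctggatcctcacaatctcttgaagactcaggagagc
Cybb: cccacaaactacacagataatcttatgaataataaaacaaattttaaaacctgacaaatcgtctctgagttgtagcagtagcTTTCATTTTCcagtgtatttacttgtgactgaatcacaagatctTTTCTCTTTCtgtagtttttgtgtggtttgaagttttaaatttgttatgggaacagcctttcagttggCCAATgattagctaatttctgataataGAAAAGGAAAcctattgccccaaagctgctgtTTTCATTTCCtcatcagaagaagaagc

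Cybb itself read 5.25, 5.29 and 5.31 in low IL-7, 7.85, 8.97 and 9.56 with IRF4, against 5.19, 5.31 and 5.24 in high IL-7. The gain of 3.50 (SE 0.32, adjusted p = 1.89e-05) starts from arrays below the filter intensity, so its size depends on the pseudocount. Among 15 markers of maturing B cells, 10 were higher with IRF4 (66.7%, against 18.6% of all genes) and 1 was lower (6.67%, against 17.7%), with a median of 0.79. Besides Ms4a1 and Btla these included Tnfrsf13c, the receptor for the survival factor BAFF, which read 8.92, 8.99 and 9.19 in low IL-7, 11.37, 11.30 and 11.05 with IRF4, against 9.78, 9.91 and 9.95 in high IL-7. It was 4.62-fold higher with IRF4 (adjusted p = 7.26e-07), and low IL-7 again lay below the starting state. Fcrla, an Fc receptor-like protein, was higher in both routes than in high IL-7 (6.96, 7.50 and 7.07), with 8.13, 8.79 and 9.002 in low IL-7 and 9.44, 10.07 and 10.05 with IRF4. The exception was Cd72, a co-receptor that dampens B cell receptor signals, at 12.58, 12.79 and 12.71 in low IL-7, 11.13, 11.15 and 10.89 with IRF4, against 11.59, 11.59 and 11.52 in high IL-7 (-1.64, SE 0.08, adjusted p = 8.05e-07). The complement receptor Cr2 (0.10), the chemokine receptor Cxcr5 (0.10) and Cd40 (0.22) had intervals within 1.5-fold. Cd2, an adhesion molecule that appears on pre-B cells as they stop cycling, differed by 0.82 (SE 0.15, adjusted p = 0.00159), at 7.24 to 7.29 in low IL-7, 7.69 to 8.29 with IRF4, against 6.91 to 7.17 in high IL-7. Il2ra, the CD25 chain of small pre-B cells, was below the filter; over all probe sets it differed by 1.68 (adjusted p = 5.53e-05), from 6.12, 6.06 and 5.99 in low IL-7 to 7.20, 8.16 and 7.85 with IRF4.

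Rag1 and Rag2 encode the recombinase that cuts immunoglobulin gene segments. Rag1 read 11.94, 12.44 and 12.22 in low IL-7, 8.78, 9.35 and 8.72 with IRF4, against 7.36, 8.10 and 7.13 in high IL-7. Both routes lay above the starting state without overlap, and low IL-7 lay 9.52-fold above IRF4 (interval 6.47 to 13.99, adjusted p = 6.9e-06). Rag2 read 10.74, 10.55 and 10.61 in low IL-7 and 7.64, 7.76 and 7.27 with IRF4, where 1 IRF4 array fell within the high IL-7 range of 7.22 to 7.34. It was 8.42-fold lower with IRF4 than in low IL-7 (interval 6.97 to 10.2, adjusted p = 2.14e-07). Of the 15 genes of recombination and end joining tested, 3 were higher with IRF4 (20%, against 18.6% of all genes) and 5 lower (33.3%, against 17.7%), with a median of -0.04. Xrcc6, the Ku70 subunit that holds broken ends, was lower with IRF4 (-1.43, SE 0.09), at 11.91 to 12.19 in low IL-7, 10.51 to 10.70 with IRF4, against 10.51 to 10.65 in high IL-7. Its partner Xrcc5, the Ku80 subunit, was higher (0.68, SE 0.11, adjusted p = 0.000906), at 8.99, 8.65 and 8.80 in low IL-7, 9.60, 9.45 and 9.43 with IRF4, against 9.96, 9.70 and 9.74 in high IL-7. Lig4, the ligase that seals the joins, was lower with IRF4 (-1.09, SE 0.12), at 10.82, 10.59 and 10.90 in low IL-7, 9.66, 9.88 and 9.51 with IRF4, against 8.69, 8.68 and 8.86 in high IL-7.

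Several end-joining genes showed no difference large enough to call. Prkdc, the DNA-dependent kinase, differed by 0.13, Poll by 0.12, Xrcc4 by 0.03, Hmgb2, a cofactor of the recombinase, by 0.00, Paxx by -0.04 and Nhej1 by -0.18, all with 95% intervals within 1.5-fold. Trp53bp1 differed by -0.38 (adjusted p = 0.0847). Atm, the kinase that senses breaks, was called at 0.38 (adjusted p = 0.0346) and the polymerase Polm at 0.39 (adjusted p = 0.0178), but Atm lost the call without any 1 of low IL-7 replicates 2 and 3 or the IRF4 arrays, and Polm without low IL-7 replicate 1 or 3 or IRF4 replicate 3. Without IRF4 replicate 3, 1 gene of the 15 was higher with IRF4 and 5 were lower.

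Of the immunoglobulin transcripts that the rearrangement produces, few could be measured: 11 of 16 light-chain symbols lay below the filter. Of the 5 tested, Igkv8-30, a kappa variable segment, read 5.88, 5.87 and 5.71 in low IL-7, 10.41, 10.90 and 11.41 with IRF4, against 5.11, 4.78 and 4.72 in high IL-7. The IRF4 arrays were far above both other groups, and the low IL-7 arrays lay above all those in high IL-7. The routes differed by 5.08 (SE 0.21, adjusted p = 2.14e-07), a size that depends on the pseudocount (4.23 with 64, 5.52 with 1), and the probe set is of a type that can hybridise to related segments. Igkv9-120 (-0.22), Igk (-0.17), Igkv19-93 (-0.11) and Iglv1 (0.19) were not called and had intervals within 1.5-fold, although a dimmer Igk probe set was higher with IRF4 by 0.84 (adjusted p = 4.63e-05 over all probe sets) and a dimmer Iglv1 probe set, below the filter, by 0.64 (adjusted p = 0.000219). Igkv5-39, also below the filter, was higher by 0.37 (adjusted p = 0.0133 over all probe sets). With no filter, 2 of the 16 light-chain symbols were called higher with IRF4 and 0 lower. Over all 18193 genes at that setting, 2404 were higher and 2337 lower. Of 4 heavy-chain symbols 1 was called (25%, against 36.4% of all genes). This was Ighv14-2, a heavy variable segment, which read 10.28, 10.32 and 10.44 in low IL-7, 9.38, 9.43 and 9.17 with IRF4, against 9.23, 9.08 and 8.92 in high IL-7. It was 2.03-fold lower with IRF4 (-1.02, SE 0.11, adjusted p = 5.03e-05), and its IRF4 arrays overlapped those in high IL-7. Ighm, the mu heavy chain, was at 14.07, 14.04 and 14.01 in low IL-7, 13.98, 13.999 and 14.10 with IRF4, against 13.92, 13.75 and 13.72 in high IL-7. On this brightest probe set the routes overlapped, with a difference of -0.01 and an interval from -0.13 to 0.10. Of its 4 other probe sets above the filter 3 were not called. The dimmest of them was higher with IRF4 by 0.31 (adjusted p = 0.0482 over all probe sets).

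In the pre-B cell receptor and the kinases behind it the differences were mostly small, but the calls leaned lower with IRF4. Of 19 genes tested, 1 was higher with IRF4 (5.26%, against 18.6% of all genes), 7 were lower (36.8%, against 17.7%) and the median was -0.18. The interval lay within 1.5-fold for 11 of them, which as a share is no more than the 65.4% of all genes. Syk, the kinase recruited to the receptor, read 11.998, 12.05 and 11.89 in low IL-7, 11.72, 12.01 and 12.13 with IRF4, against 11.28, 10.94 and 10.71 in high IL-7. Its routes overlapped and both lay above the starting state, with a difference of -0.03 (interval -0.34 to 0.29); a dimmer probe set differed by -1.27 (adjusted p = 0.00193 over all probe sets). Blnk, the adaptor that couples Syk to its targets, was separated: it read 13.38, 13.34 and 13.31 in low IL-7, 12.17, 12.16 and 12 with IRF4, against 11.99, 11.89 and 11.89 in high IL-7 (-1.24, SE 0.06, adjusted p = 6.71e-07). The surrogate light chain genes Vpreb1 (-0.40) and Igll1 (-0.35), and the related Vpreb3 (-0.35), were lower with IRF4, by less than 1.5-fold at the far end of their intervals, and so was the signalling chain Cd79b (-0.33); Igll1 lost its call after median centring. Inpp5d, the phosphatase SHIP1, differed by -0.71, though its other probe set was not called the same way. Prkcb, protein kinase C beta, differed by -0.59, with high IL-7 below both routes at 10.57, 10.71 and 10.47. Cd79a (-0.08, interval -0.64 to 0.49), Blk (-0.28, interval -0.80 to 0.24), Pik3cd (0.37, adjusted p = 0.095) and Vav2 (0.44, adjusted p = 0.0777) were neither called nor bounded within 1.5-fold. Plcg2 (0.15), Vav1 (0.01), Fyn (0.07), Btk (-0.18), Pik3ap1 (0.19) and Pik3r1 (-0.30) were bounded. Pik3r1 (adjusted p = 0.0578) was called lower with IRF4 under a stricter filter, quantile normalization or array weights. It was also called lower without IRF4 replicate 1 or low IL-7 replicate 2. Ptpn6, the phosphatase SHP-1, was called at 0.39 and lost the call without low IL-7 replicate 2 or 3 or without IRF4 replicate 2 or 3.

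**Figure D3:**
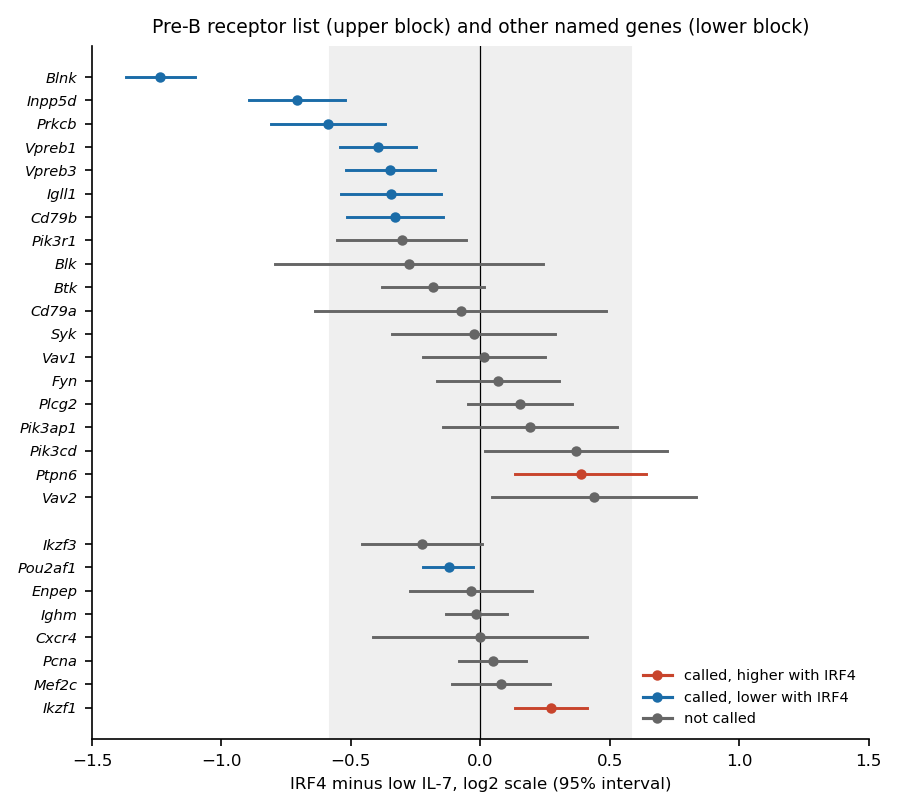
Points are the IRF4 minus low IL-7 difference in log2(intensity + 16) of each tested gene of the pre-B receptor list and of 8 further genes, with 95% intervals from the model; the shaded band marks 1.5-fold either way (0.58 on the log2 scale). Syk, Ighm, Pcna and Cxcr4 lie within the band, and Blnk lies wholly outside it at -1.24.

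B-lineage transcription factors were on balance lower with IRF4, with a median of -0.48. Of 31, 19 were lower (61.3%, against 17.7% of all genes) and 5 higher (16.1%, against 18.6%). Foxo1, an activator of the Rag genes, read 11.55, 11.60 and 11.57 in low IL-7, 10.43, 10.37 and 10.22 with IRF4, against 10.01, 10.08 and 10.17 in high IL-7, with no overlap between any groups. It was 2.36-fold lower with IRF4 than in low IL-7 (adjusted p = 2.83e-06), and 2 of its 3 other probe sets were called the same way. Lef1 (-1.51, SE 0.12) and Myb (-0.98, SE 0.06), factors of proliferating B progenitors, were lower with IRF4 as well. Bach2, a repressor of plasma cell genes, was above the starting state in both routes, at 12.33, 12.49 and 12.40 in low IL-7, 11.82, 11.65 and 11.64 with IRF4, against 10.67, 10.59 and 10.77 in high IL-7 (-0.70, SE 0.08, called the same way on 1 of its 2 other probe sets). Spib, a PU.1 relative and partner of IRF4, was above it in both too, but higher with IRF4: it read 12.10, 12.13 and 12.21 in low IL-7, 12.50, 12.82 and 12.83 with IRF4, against 11.29, 11.38 and 10.98 in high IL-7 (0.57, SE 0.11, adjusted p = 0.0028). Bcl11a, a factor needed for B cell development, differed by 1.47 (SE 0.10).

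For other factors the routes lay within 1.5-fold of each other. Mef2c, which acts downstream of the pre-B receptor, read 11.36, 11.16 and 11.34 in low IL-7, 11.35, 11.28 and 11.48 with IRF4, against 10.39, 10.42 and 10.30 in high IL-7, with a difference of 0.08 and an interval from -0.11 to 0.27. Ikzf3, or Aiolos, which helps to silence growth genes in pre-B cells, differed by -0.23 (adjusted p = 0.122) and Ikzf1, or Ikaros, by 0.27 (SE 0.06, adjusted p = 0.00622), both bounded within 1.5-fold; Ikzf1 stood at 11.40 to 11.43 in high IL-7 and at 11.79 to 12.20 in the 2 routes. Pou2af1, a B cell coactivator, differed by -0.12 (adjusted p = 0.0481), a call lost without either of IRF4 replicates 1 and 2 or low IL-7 replicates 2 and 3, among others. Among 14 Kruppel-like and interferon regulatory factors, 4 were lower with IRF4 (28.6%, against 17.7% of all genes) and 0 higher (against 18.6%). The lower ones were Klf4 (-1.01), Klf10 (-0.69), Klf7 (-0.51) and Irf1 (-0.47), of which Klf4 and Klf10 lost their calls without both arrays of low 18S signal. At an unadjusted p below 0.05 the count higher was still 0. Klf4 also lost its call without low IL-7 replicate 2 or 3 or IRF4 replicate 2 or 3, and Klf10 without low IL-7 replicate 1. The other probe set of Klf4 was not called the same way. Klf2, a FOXO target of quiescent lymphocytes, differed by 0.50 (interval -0.13 to 1.12).

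Prdm1, or Blimp-1, the repressor that directs plasma cell differentiation, was 9.32-fold lower with IRF4, at 9.15, 9.67 and 9.42 in low IL-7, 6.06, 6.31 and 6.21 with IRF4, against 6.48, 6.71 and 6.47 in high IL-7. Only low IL-7 was high, and the IRF4 arrays lay just below the starting state; both were below the filter intensity (-3.22, SE 0.13, adjusted p = 2.14e-07). Of the 15 genes of the plasma cell list, Prdm1 included, 9 were higher with IRF4 (60%, against 18.6% of all genes) and 3 lower (20%, against 17.7%). The median was 0.41. Xbp1, the factor for secretory capacity, read 11.11, 11.08 and 11.07 in low IL-7, 12.22, 11.89 and 12.07 with IRF4, against 12.35, 12.35 and 12.48 in high IL-7. Txndc5 (1.29) and Creld2 (1.08), which help fold proteins in the endoplasmic reticulum, were also higher with IRF4. The Prdm1 promoter (chr10:44458719-44458998, minus strand), shown over the same span as those above as the largest difference in a regulator of B cell fate, holds the FOXO motif GTAAACA 231 bases before the start and ATTGG 31 bases before it, in capitals. GTAAACA on either strand was found in 3.65% of all promoters of the table.
Prdm1: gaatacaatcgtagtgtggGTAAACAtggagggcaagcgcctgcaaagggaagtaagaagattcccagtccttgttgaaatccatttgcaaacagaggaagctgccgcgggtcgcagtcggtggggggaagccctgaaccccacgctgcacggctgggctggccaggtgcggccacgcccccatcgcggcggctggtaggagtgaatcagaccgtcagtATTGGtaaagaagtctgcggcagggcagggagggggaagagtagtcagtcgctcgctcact

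The IL-7 receptor and some of its targets separated the routes in opposite directions. Il7r, the receptor's alpha chain, read 12.39, 12.61 and 12.49 in low IL-7, 10.22, 9.89 and 10.15 with IRF4, against 9.78, 9.48 and 9.73 in high IL-7. All low IL-7 arrays were far above the rest, 5.31-fold over IRF4 (adjusted p = 6.56e-07). Of 19 genes of the receptor and STAT5 list, 8 were higher with IRF4 (42.1%, against 18.6% of all genes) and 2 lower (10.5%, against 17.7%). The median was 0.09, and without both arrays of low 18S signal 4 were lower. Myc, the growth regulator, read 9.05, 9.43 and 8.98 in low IL-7, 11.53, 11.31 and 11.43 with IRF4, against 12.16, 11.44 and 11.82 in high IL-7. Its IRF4 arrays overlapped the starting state and were 4.82-fold above low IL-7 (adjusted p = 6.69e-06). Cish, a feedback inhibitor switched on by STAT5, read 8.78, 8.67 and 8.77 in low IL-7, 10.43, 10.14 and 9.96 with IRF4, against 10.64, 10.68 and 10.83 in high IL-7 (1.44, SE 0.12). The kinase Pim2 (1.23, SE 0.25), the cytokine gene Lta (1.44, SE 0.23), Socs2 (0.70, SE 0.13, called on 1 of its 4 other probe sets) and Pim1 (0.37, adjusted p = 0.00878) were higher with IRF4. Osm was called at 0.38 and lost the call without any 1 of the low IL-7 arrays or IRF4 replicate 1 or 3. Jak1 was lower (-0.57, SE 0.10), though its 2 other probe sets were not called.

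The other 9 genes of the list were not called. Stat5a differed by -0.07, Stat5b by -0.28 (adjusted p = 0.0964) and Jak3 by -0.28 (adjusted p = 0.222). The survival genes Bcl2 (-0.24), Bcl2l1 (-0.17) and Mcl1 (-0.10) were bounded within 1.5-fold by their brightest probe sets, but 4 dimmer Mcl1 probe sets were called lower with IRF4, by -0.57 to -0.69. The Bcl2 probe set, at a mean intensity of 116.1, lay close to the filter of 108, so its narrow interval says little. It was called lower with array weights or without low IL-7 replicate 1. Ccnd3, the cyclin D3 of pre-B cells, read 12.82, 12.55 and 12.53 in low IL-7 and 12.59, 12.54 and 12.88 with IRF4, a difference of 0.04 (interval -0.30 to 0.37), while a dimmer probe set gave -0.65 (adjusted p = 0.00162 over all probe sets). Socs3 differed by 0.09 and Socs1 by 0.60 (adjusted p = 0.0754).

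Of the FOXO targets, 16 of 24 were lower with IRF4 (66.7%, against 17.7% of all genes), and 1 was higher (4.17%, against 18.6%), with a median of -0.64. Ccng2, an antiproliferative cyclin, read 12.47, 12.55 and 12.59 in low IL-7, 11.61, 11.65 and 11.25 with IRF4, against 10.90, 11.13 and 10.95 in high IL-7 (-1.03, SE 0.11). Both routes lay above the starting state, low IL-7 farther. S1pr1, a receptor for exit from tissues, differed by -0.62; Cdkn1b (-0.16) was not called and was bounded within 1.5-fold. Bcl2l11, the death agonist BIM, gave no single answer: its brightest probe set was not called (0.20), but all 4 others were higher with IRF4 and the median over its probe sets differed by 0.60 (adjusted p = 0.00242). Among 13 genes of the NF-kappaB list, 5 were lower with IRF4 (38.5%, against 17.7% of all genes) and 1 higher (7.69%, against 18.6%). The median was -0.19. Nfkbia, the inhibitor that NF-kappaB itself induces, read 13.17, 13.26 and 13.26 in low IL-7, 12.04, 12.02 and 11.54 with IRF4, against 11.51, 12.04 and 12.02 in high IL-7, so that its IRF4 arrays lay within the range of the starting state. It differed by -1.37 (SE 0.16, adjusted p = 7.69e-05) and was called on all 4 other probe sets, and Tnfaip3, another induced inhibitor, differed by -0.89.

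Genes of early B progenitors were mostly lower with IRF4, with a median of -0.82. Of 16, 11 were lower (68.8%, against 17.7% of all genes) and 2 higher (12.5%, against 18.6%). Beside Dntt, Hmga2 and Il7r they included Lgr5, a receptor that amplifies WNT signals, which read 11.73, 11.37 and 11.46 in low IL-7, 9.46, 9.33 and 9.40 with IRF4, against 8.37, 8.44 and 8.38 in high IL-7. Mycn and Ly6d (1.36, SE 0.18), a marker of B-committed progenitors, were the higher ones. Enpep, the BP-1 antigen of cycling pre-B cells, did not separate the routes, at -0.04 with an interval from -0.27 to 0.20. Of 19 chemokine receptors and adhesion molecules, 3 were higher with IRF4 (15.8%) and 4 lower (21.1%), shares near those of all genes (18.6% and 17.7%). The interval lay within 1.5-fold for 13 of the 19, against 65.4% of all genes. Cxcr4, the receptor for CXCL12 that keeps cells in the marrow, read 11.41, 11.16 and 11.24 in low IL-7, 11.12, 11.09 and 11.61 with IRF4, against 10.51, 9.80 and 10.00 in high IL-7. The routes overlapped and both lay above the starting state, with a difference of 0.00 and an interval from -0.41 to 0.41. Itga4, an integrin that binds VCAM-1, was lower with IRF4 (-1.76, SE 0.07, adjusted p = 2.14e-07, called on all 3 other probe sets), as was the tetraspanin Cd9 (-1.46, SE 0.10). Ccr7, which guides lymphocytes to lymph nodes, was higher: it read 7.47, 7.38 and 7.28 in low IL-7, 8.76, 8.96 and 9.05 with IRF4, against 7.65, 7.53 and 7.18 in high IL-7 (1.55, SE 0.13, adjusted p = 9.94e-06).

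**Figure D4:**
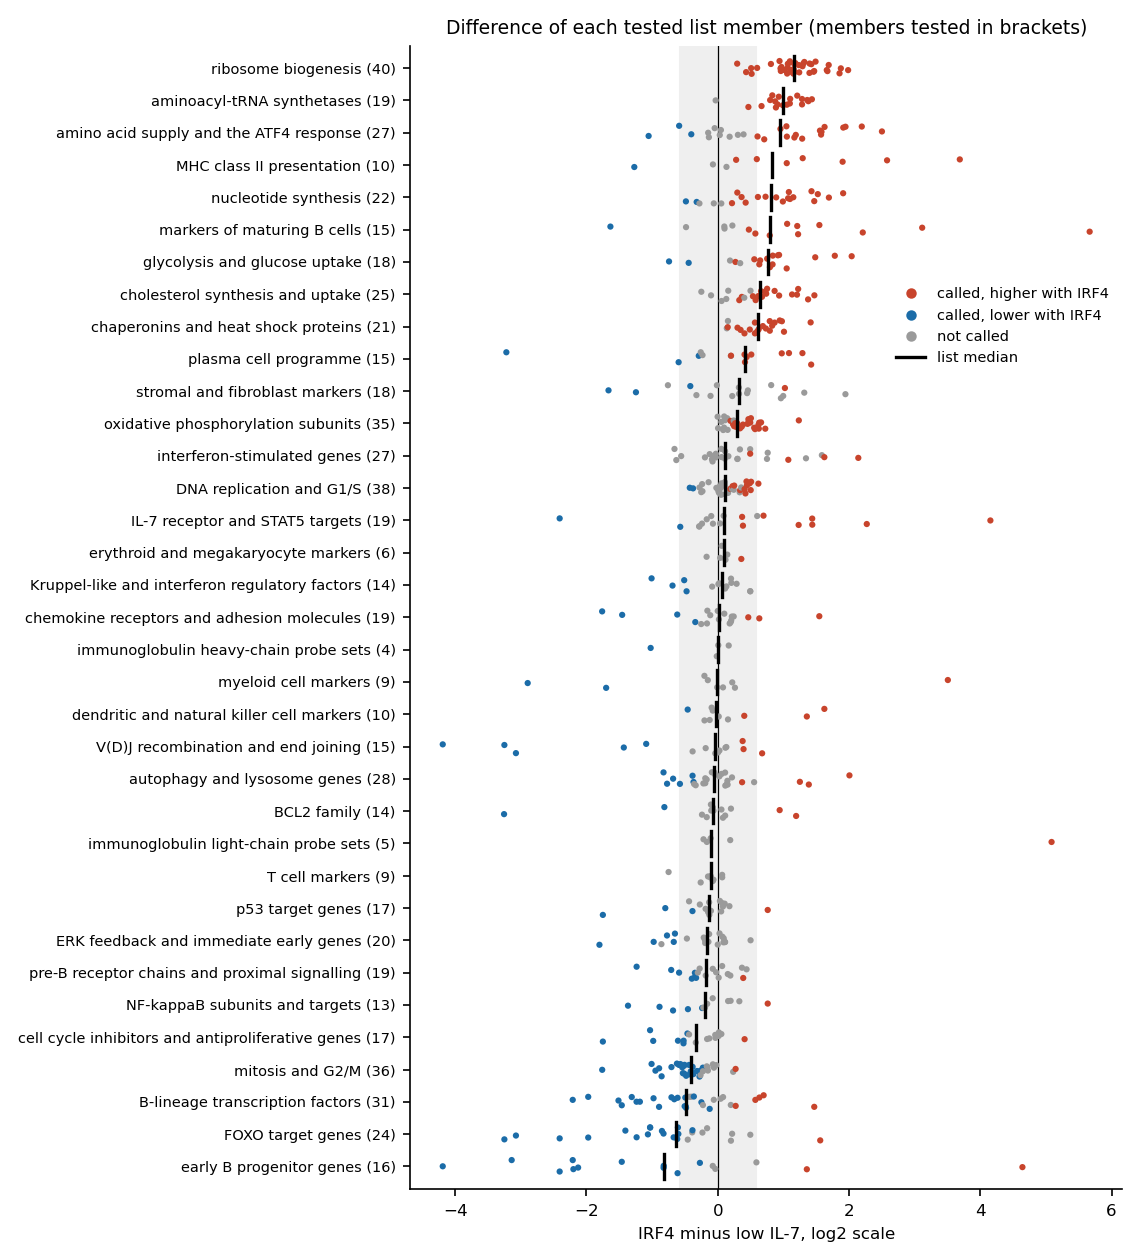
Each point is the IRF4 minus low IL-7 difference in log2(intensity + 16) of 1 tested gene, with the 35 gene lists as rows and the grey band marking 1.5-fold either way. All 40 ribosome biogenesis genes lie above 0, while FOXO targets (median -0.64), early B progenitor genes (median -0.82) and mitosis genes (median -0.41) lie mostly below it.

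Of the 35 lists, the one with the largest share of calls in 1 direction was a growth list. All 40 genes of ribosome biogenesis tested were called higher with IRF4, by 0.30 to 1.99 with a median of 1.16, against 18.6% of all genes; the smallest, Nop14, lost its call without either of low IL-7 replicates 1 and 3 or IRF4 replicates 1 and 2. Nop16, a nucleolar protein and MYC target, read 9.13, 9.06 and 8.85 in low IL-7, 10.87, 10.92 and 10.82 with IRF4, against 11.15, 11.06 and 11.10 in high IL-7, 3.62-fold higher with IRF4 than in low IL-7 (adjusted p = 6.71e-07). Low IL-7 stood apart and the IRF4 arrays lay a little below the starting state. The list's median level by array showed the same order, at 10.06, 10.02 and 9.97 in low IL-7, 11.15, 11.20 and 11.10 with IRF4, against 11.35, 11.23 and 11.32 in high IL-7. Rrp1b differed by 1.88 (SE 0.10), Gnl3, or nucleostemin, by 1.24 (SE 0.07) and Npm1, nucleophosmin, by 0.52 (SE 0.03). Wdr43, a factor of early ribosomal RNA processing, read 9.82, 9.79 and 9.81 in low IL-7, 11.16, 11.12 and 11.10 with IRF4, against 11.20, 11.15 and 11.29 in high IL-7 (1.32, SE 0.07, adjusted p = 1.04e-06). Its promoter (chr17:71615965-71616244, plus strand), shown for its E-box, holds CACGTG, the kind of E-box that MYC proteins bind, 18 bases after the start. CACGTG was found in 8 of 39 promoters of the ribosome biogenesis list (20.5%), in 9.62% of the promoters of all genes tested and in 7.15% of all promoters of the table.
Wdr43: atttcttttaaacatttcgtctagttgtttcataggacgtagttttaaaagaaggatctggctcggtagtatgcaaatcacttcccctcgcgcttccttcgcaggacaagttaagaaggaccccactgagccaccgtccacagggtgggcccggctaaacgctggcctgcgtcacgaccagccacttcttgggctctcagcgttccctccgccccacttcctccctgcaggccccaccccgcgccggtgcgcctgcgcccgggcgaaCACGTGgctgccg

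Other biosynthetic lists went the same way, and their counts stand against 18.6% of all genes higher with IRF4 and 17.7% lower. Of 19 aminoacyl-tRNA synthetases, 18 were higher with IRF4 and 0 lower, also at an unadjusted p below 0.05 (median 0.99), led by Iars (1.36), Mars1 (1.28), Tars (1.28) and Nars (1.10), while Qars differed by -0.03. Of 27 genes of amino acid supply and the ATF4 response, 16 were higher and 3 lower (median 0.95), with Shmt2, the mitochondrial serine hydroxymethyltransferase, at 1.91 (SE 0.14) and the arginine transporter Slc7a1 at 1.56. Of 22 genes of nucleotide synthesis, 17 were higher and 2 lower (median 0.81), with Ppat, which starts purine synthesis, at 1.47 and Atic, which ends it, at 1.43; Rrm2, a ribonucleotide reductase subunit, was lower by its brightest probe set (-0.32) and by neither of its 2 other probe sets. Of 18 genes of glycolysis, 14 were higher and 2 lower (median 0.77). Hk2, hexokinase 2, read 8.07, 8.11 and 8.22 in low IL-7, 10.04, 9.97 and 9.73 with IRF4, against 10.25, 10.40 and 10.44 in high IL-7, so that the IRF4 arrays lay between the other groups and close to the starting state (1.78, SE 0.10, adjusted p = 1.58e-06). Sterol and fatty acid genes (18 of 25 higher, 0 lower, median 0.65; Scd1 1.47, Acaca 1.21, Fasn 1.13), chaperones (19 of 21 higher, 0 lower, median 0.62; Hspa9 1.42, Hspd1 1.01) and subunits of oxidative phosphorylation (24 of 35 higher, 0 lower, median 0.29; Atp5g1 1.24, Cycs 0.66) followed. At an unadjusted p below 0.05, 1 sterol gene, 0 chaperones and 0 oxidative phosphorylation subunits were lower. Of that last list 22 of 35 members were bounded within 1.5-fold, as with Cox4i1 (0.05), against 65.4% of all genes.

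**Figure D5:**
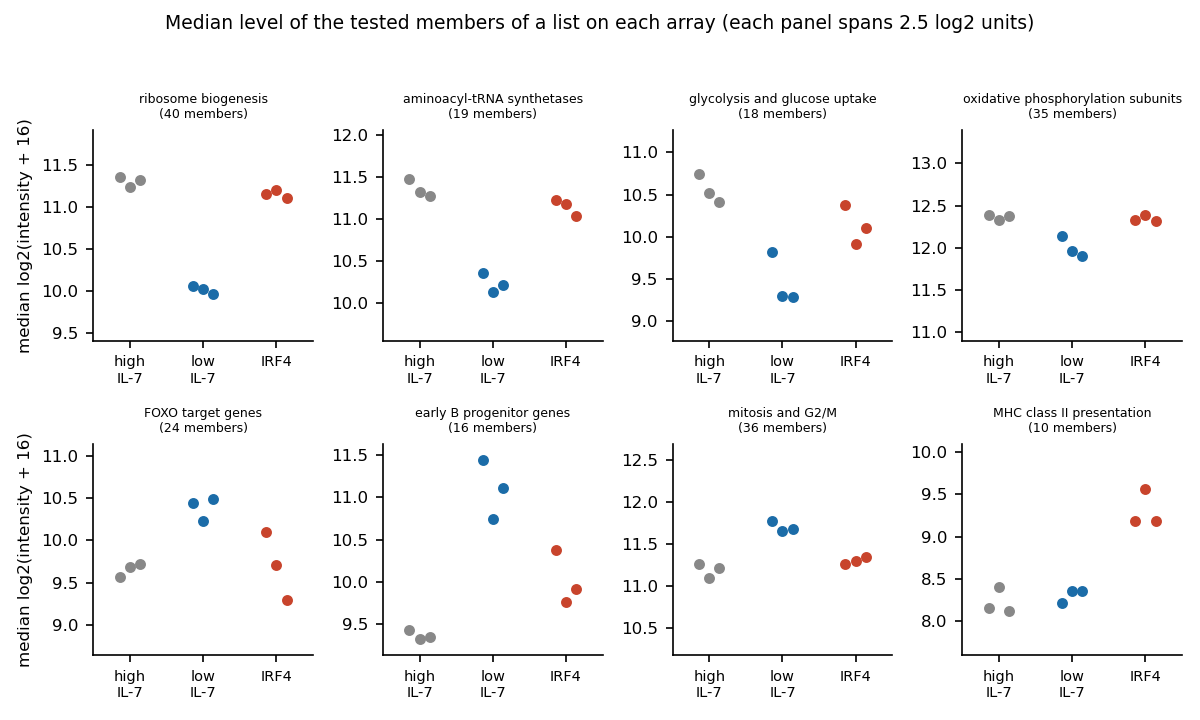
Each panel shows the median log2(intensity + 16) over the tested members of 1 gene list on every array, grouped by low IL-7, IRF4 and high IL-7. For ribosome biogenesis and tRNA synthetases low IL-7 is lowest and IRF4 is near high IL-7, and for glycolysis the IRF4 arrays lie between the other groups. For MHC class II the IRF4 arrays stand above both other groups, and for progenitor genes low IL-7 is highest.

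Cell cycle genes did not follow the growth genes. Of 36 genes of mitosis and G2/M, 26 were lower with IRF4 (72.2%, against 17.7% of all genes) and 1 higher (2.78%, against 18.6%), with a median of -0.41. Cdc25b, the phosphatase that admits cells to mitosis, read 11.93, 11.93 and 12.04 in low IL-7, 10.29, 10.19 and 10.14 with IRF4, against 10.64, 10.39 and 10.55 in high IL-7 (-1.76, SE 0.09, adjusted p = 6.71e-07). Its low IL-7 arrays were the highest and its IRF4 arrays the lowest of the 3 groups. The list as a whole differed from Cdc25b in this. Its median level by array was 11.77, 11.65 and 11.68 in low IL-7, 11.26, 11.29 and 11.34 with IRF4, against 11.26, 11.09 and 11.21 in high IL-7. Low IL-7 thus stood apart, and the IRF4 arrays lay at or just above the starting state. The kinetochore genes Cenpe (-1.01) and Cenpf (-0.95) and the cyclin Ccnb2 (-0.53) were lower with IRF4 too, while Cks2 (-0.02) was bounded within 1.5-fold. Cyclin A2, Ccna2, was not called by its brightest probe set (-0.07), but its other probe set was lower with IRF4 (-0.41, adjusted p = 0.000101 over all probe sets). Genes of DNA replication and G1/S differed less than those of mitosis, with a median of 0.11. The interval was bounded for 24 of 38, against 65.4% of all genes, and 36.8% were called, near the 36.4% of all genes. Of the 38 genes 12 were higher (31.6%, against 18.6% of all genes) and 2 lower (5.26%, against 17.7%). Without IRF4 replicate 3, 0 were lower. Mcm3, a subunit of the replicative helicase, differed by 0.62 and Mcm10 by 0.49, whereas Pcna, the sliding clamp, differed by 0.05 (interval -0.08 to 0.17).

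Among 17 cell cycle inhibitors and antiproliferative genes, 7 were lower with IRF4 (41.2%, against 17.7% of all genes) and 1 higher (5.88%, against 18.6%). The median was -0.33. Cdkn1a, the inhibitor p21, read 11.41, 10.76 and 11.12 in low IL-7, 9.70, 9.08 and 9.26 with IRF4, against 10.13, 10.10 and 10.06 in high IL-7. The routes lay on opposite sides of the starting state, 3.36-fold apart (adjusted p = 3.85e-05). Cdkn2c, the inhibitor p18, differed by -0.98 and Rbl2, the pocket protein p130, by -0.61. Of 14 BCL2 family genes 2 were higher with IRF4 and 2 lower, 14.3% each and so a smaller share than of all genes (18.6% and 17.7%); the death agonist Bid was higher by 1.19 (SE 0.14), and Bcl2l2 was lower by its brightest probe set (-0.81) but by neither of 2 others. Of 17 p53 targets 3 were lower with IRF4 (17.6%, near the 17.7% of all genes) and 1 higher (5.88%, against 18.6%), with Trp53inp1 at -0.80 and Aen at 0.76. Among 20 genes of ERK feedback and the immediate early response, 5 were lower (25%, against 17.7% of all genes) and 0 higher (against 18.6%). The lower ones were led by the ERK phosphatase Dusp6 (-1.80, SE 0.15). At an unadjusted p below 0.05 6 were lower and 0 higher.

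Of 27 interferon-stimulated genes, 4 were higher with IRF4 (14.8%, under the 18.6% of all genes) and 0 lower (against 17.7%), with a median of 0.11. At an unadjusted p below 0.05, 7 were higher and 0 lower. Without IRF4 replicate 3, 3 were called higher and 2 lower. The mean level of the list ran from 8.75 to 8.87 over the low IL-7 arrays, from 8.67 to 9.74 over the IRF4 arrays and from 8.5 to 9.4 over the high IL-7 arrays. Gbp3, a guanylate-binding protein, was the clearest, at 8.04, 7.39 and 7.55 in low IL-7, 9.62, 9.88 and 9.90 with IRF4, against 7.41, 7.79 and 7.15 in high IL-7 (2.14, SE 0.19, adjusted p = 1.63e-05). Bst2, or tetherin, differed by 1.62 (SE 0.27), but its high IL-7 arrays, at 9.70, 10.31 and 9.27, were as high as those with IRF4. Among 28 autophagy and lysosome genes, 4 were higher with IRF4 (14.3%) and 6 lower (21.4%), shares near those of all genes (18.6% and 17.7%). The lower ones were Gabarapl1 (-0.83), Map1lc3b (-0.77), Lamp2 (-0.68), Sqstm1 (-0.58), Ulk1 (-0.38) and Mcoln1 (-0.37), of which Map1lc3b and Gabarapl1 encode proteins of the autophagosome membrane. The higher ones included the proteases Ctss, or cathepsin S, which trims the invariant chain, at 9.17, 9.46 and 9.25 in low IL-7, 11.15, 11.39 and 11.35 with IRF4, against 10.04, 10.25 and 9.74 in high IL-7 (2.01, SE 0.14), Ctsh (1.39) and Ctsz (1.25).

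Markers of other cell types were read because the arrays measure bulk RNA, in which fewer cells of a type and less RNA per cell cannot be told apart. Of 9 T cell markers tested 0 were called (against 36.4% of all genes), and at an unadjusted p below 0.05 2 were lower with IRF4 and 0 higher. Their mean level ran from 8.33 to 8.43 in low IL-7 and from 8.17 to 8.32 with IRF4. Of the defining chains Cd3g had a mean intensity of 14.8 and Cd3e of 158, against the filter of 108. Of the other defining markers Cd8a, at 368, and Cd4, at 295, lay above the filter, and 5 of the 16 listed lay below it. Brighter were Thy1, at 912, Zap70, at 809, and Lat, at 467. Cd5, below the filter, had intensities of 64.2 with IRF4 against 155 in low IL-7. With no filter, 1 of 14 T cell markers was called lower and 0 higher, against 2337 and 2404 of 18193 genes. Of 9 myeloid markers, Cybb was higher with IRF4 (11.1%, against 18.6% of all genes) and 2 were lower (22.2%, against 17.7%). Of the lower ones Itgam differed by -1.70. The other, Fcer1g, the common Fc receptor gamma chain, read 10.50, 10.02 and 10.25 in low IL-7, 7.28, 7.35 and 7.44 with IRF4, against 9.20, 8.64 and 8.44 in high IL-7. The mean level of the myeloid list ran from 7.51 to 7.59 in low IL-7 and from 7.29 to 7.62 with IRF4, and 7 of the 17 listed lay below the filter, among them S100a8 and Csf3r with mean intensities of 46.4 and 33.7. Csf1r, at 428 with IRF4 against 353 in low IL-7, and Cd14, at 140, lay above it. Lyz1, below the filter, had intensities of 23.8 with IRF4 against 81.1 in low IL-7. Of 10 dendritic and natural killer cell markers 3 were higher with IRF4 (30%, against 18.6% of all genes) and 1 lower (10%, against 17.7%). The higher ones included Ly6d and Bst2, described above under other lists, and the lower one was Prf1 (-0.46). Itgax (-0.12), Flt3 (-0.08), Nkg7 (-0.20) and Batf3 (0.16) were not called. Of 6 erythroid and megakaryocyte markers 1 was higher (16.7%, near the 18.6% of all genes) and 0 lower (against 17.7%). Stromal markers varied widely among arrays: of 18 tested, Col5a1 was higher with IRF4 (1.02) and Tagln (-1.66), Timp1 (-1.25) and Acta2 (-0.42) were lower. These shares, 5.56% higher and 16.7% lower, lay under those of all genes (18.6% and 17.7%). Tagln lost its call without IRF4 replicate 2 or low IL-7 replicate 2 or 3, Acta2 without any 1 of these or of the other IRF4 arrays, and neither of 2 other Col5a1 probe sets was called. The mean level of the stromal list ran from 8.07 to 9.13 in low IL-7, from 8.19 to 10.08 with IRF4 and from 8.79 to 10.62 in high IL-7, and the median difference was 0.32. Their part in the differences above was not tested.

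A last group of genes shows where the starting state lay outside the span of both routes. Among genes called and at least 2-fold apart, Tubb3, a neuronal tubulin, was highest in high IL-7: it read 7.18, 6.71 and 7.12 in low IL-7, 9.38, 9.10 and 9.56 with IRF4, against 11.14, 10.51 and 10.50 in high IL-7. Both routes were thus below the starting state, low IL-7 farther, as for Mc1r, Ankrd37, Tnfsf11, Rangrf and Gpt2, whose differences between routes were 1.42, 1.87, 1.20, 1.04 and 1.29. Chac1 (1.19) and Nckap1 (-1.13) belonged to this group but lost their calls when single arrays were left out, Chac1 without low IL-7 replicate 2 or 3 and Nckap1 without any 1 of the low IL-7 arrays or IRF4 replicate 2 or 3. Below both routes in high IL-7 were Rag1 and Lgr5, described above, and Tifa, an adaptor of innate signalling, which read 11.86, 11.52 and 11.67 in low IL-7, 10.34, 10.65 and 10.79 with IRF4, against 8.75, 8.59 and 8.68 in high IL-7. Both routes lay above the starting state for Tifa, low IL-7 farther (-1.09, SE 0.13). Serinc5 (-1.42), Col5a3 (-1.29) and Rgs2 (-1.06), a regulator of G protein signalling, followed Tifa, whereas Gpr18, an orphan lymphocyte receptor (1.21), and Fcrla were higher with IRF4 than in low IL-7.

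The promoters of the separated genes differed in the motifs they hold, counted on both strands from 250 bases before to 50 after the start, with each motif counted on its own and overlaps allowed. Promoters were matched by symbol for 302 of the 382 genes at least 2-fold higher with IRF4 (361 promoters) and for 304 of the 371 lower (461 promoters). The MYC type E-box CACGTG was in 18.6% of the former (67 promoters) and 6.72% of the latter (31 promoters), against 9.62% for all genes tested. The STAT type TTCNNNGAA was in 10.2% and 6.07%, against 6.78%. The interferon response type was in 4.71% and 2.82%, against 2.85%, and the ETS-IRF composite, which can overlap it, in 1.39% and 2.82%, against 2.37%. GTAAACA was in 1.11% and 2.82%, against 2.75%, and CCAAT in 41% and 35.4%, against 37.3%. These shares are descriptions with no test, and the genes were sorted by the same differences that are reported above.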

How the data were processed

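Gene expression was measured on Affymetrix mouse arrays from 9 samples, 3 in each of 3 groups taken from the sample titles; the 6 IRF4 and low IL-7 arrays are compared here. Per the labels' protocols, total RNA (Trizol, then a column) was labelled with biotin. The authors deposited 1 table of linear intensity values for 45101 probe sets; their summarisation and scaling are not given in the sources used here. Array medians lay within 139.7 to 151.3, so no normalization was added. Precision is limited by the 3 arrays in a group.

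The platform annotation gave 34945 probe sets 1 gene symbol, 932 several and 9160 none, besides 64 control probe sets; only the first were tested, and 34754 of them matched a RefSeq gene table (GRCm38.p6) by Entrez identifier. Probe sets with a mean intensity below the 40th percentile (108) were left out, and the brightest probe set stood for its gene. limma 3.58.1 in R 4.3.3 was fitted to log2(intensity + 16) with a mean for each of the 3 groups (lmFit, eBayes with trend), so that the high IL-7 arrays enter the estimate of spread, and p-values were adjusted over all 12828 genes by the Benjamini-Hochberg method (over all probe sets, with no filter, where said). On simulated data of the same 12828 genes with independent normal noise, few genes were changed. Recovered were 55.2% of 67 genes changed by 0.5 log2 units, 98.5% of 67 at 1 and 100% of 66 at 2. The simulation gave 175 calls against 4666 in the data, so its adjusted threshold was stricter. These rates therefore check the code and do not give the recovery in this comparison.

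The 35 gene lists and the members were chosen with earlier results of these data known. Of 745 list genes, 642 were tested, 58 were below the filter and 45 had no probe set with that single symbol and were not analysed here. Named genes are the 12 largest differences in each direction without overlap between groups, the 4 smallest p of each list, the 4 narrowest intervals within 1.5-fold of each list, all members of 4 lists (recombination, pre-B receptor, MHC class II, STAT5), the genes the study is about, and up to 8 called genes with high IL-7 farthest outside both groups on each side. Promoters came from RefSeq's table and were matched by symbol for 10362 of 12828 genes. Figures were drawn with matplotlib 3.10.9. Alternatives covered the arrays fitted, pseudocount, filter, normalization, variance trend, array weights, probe set summary, replicate block and leaving out each array.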

Additional observations from a re-analysis of the deposited data

How the results depend on the processing

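With array weights, 7809 genes were called between the routes, 4089 higher with IRF4 and 3720 lower, against 4666, 2391 and 2275. Without a filter on intensity 13420 of 18193 genes, and with a stricter filter 5568 of 9468 genes, had an interval within 1.5-fold, against 8388 of 12828; these counts follow the number of genes tested. Under the remaining settings, leaving out single arrays included, 3572 to 5177 genes were called, 624 to 829 called genes differed at least 2-fold and 7676 to 9021 were bounded. Leaving out each array in turn gave 3572 to 4922 called genes (1790 to 2531 higher, 1782 to 2391 lower), 694 to 829 at least 2-fold apart and 7676 to 8550 bounded; the Irf4 difference ran from 2.07 to 2.67 on the dimmer probe set and from -1.04 to -0.94 on the brighter one.

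With the median over a gene's probe sets in place of the brightest one, 121 of the called genes changed sign. Among genes considered for naming and called under either setting, 6 did: Bcl2l2 (0.13), Ccnd3 (-0.60), Foxp1 (0.05), Irf4 (0.72), Mcm10 (0.00) and Uqcrq (-0.04). Sign changes of genes called under neither setting were not counted. No called gene changed sign under the other alternatives run. The replicate numbers did not pair the groups compared: same-numbered IRF4 and low IL-7 arrays deviated from their group means with correlations of -0.013, -0.096 and -0.148, and 0 of 3 IRF4 arrays correlated best with their own number. Same-numbered high and low IL-7 arrays did deviate together (0.549, 0.386 and 0.286), and IRF4 and high IL-7 arrays did not (-0.38, -0.163 and -0.352). With the number as a replicate block 4778 genes were called, among them 4506 of the 4666 (96.6%). Intensities of dim probe sets have no detection call, and 199 called genes had a group below the filter, so the sizes of their differences depend on the pseudocount.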

Other observations

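Above the filter lay a further 4288 probe sets without a single gene symbol. Of these, 57 were called and at least 2-fold higher with IRF4 than in low IL-7, and 187 were called and at least 2-fold lower. They enter none of the counts of genes.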
